A study of Mus musculus with 4 samples.

Results

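The inner medulla of the kidney holds urea, organic osmolytes and salt at high concentration, and the genes described here serve that environment or mark the cells that live in it. They were 9 genes picked by name: the urea transporters Slc14a2 and Slc14a1, the aldose reductase Akr1b3, the osmolyte transporters Slc5a3, Slc6a6 and Slc6a12, the tonicity regulator Nfat5, the small heat shock protein Cryab and the bradykinin receptor Bdkrb2. Each measured gene of the group had 1 array row, so the rule for several rows, the highest mean value, made no choice here. Akr1b3 is not reported here, because no row was paired with its symbol in the annotation used. The remaining 8 genes stand among 19934 genes tested. The names were chosen on knowledge of the comparison between genotypes, in which Slc14a2, Cryab and Bdkrb2 had been among the most lowered genes, so the differences of the 8 genes are a description, carry no test and support nothing by themselves.

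RNA came from the whole kidney of C57BL6/N males of 12 weeks, taken at Zeitgeber time 12 (hours after lights on) after 3 weeks of housing with 12 h of light and 12 h of darkness a day. One group was Usp2-KO, without the ubiquitin-specific protease Usp2, and the other was WT, its littermates. From 6 littermate pairs, 2 pools per genotype were made with equal RNA of 3 mice each, and each pool was put on 1 array, with the WT and Usp2-KO pools of the same number holding littermates. The labels name neither the deleted exons nor a Cre driver. An array of a pool averages its mice, so the spread between 2 pools is not the spread between animals. Values are log2 expression values. The level of Usp2 itself was 11.67 ± 0.06 in WT pools and 7.63 ± 0.04 in Usp2-KO pools (SD, n = 2). Proximal tubule markers, with list means of 13.04 to 13.07 over the arrays, and thick limb markers, with at most 11.09, fitted the labelled tissue.

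Urea moves between the inner medullary collecting duct, the thin limbs and the blood vessels through facilitated transporters. The UT-A proteins of Slc14a2 lie in the collecting duct and the descending thin limb, and the UT-B protein of Slc14a1 lies in descending vasa recta and in red blood cells. Medullary cells balance the salt and urea around them by gathering sorbitol, which aldose reductase makes, together with myo-inositol, taurine and betaine. The transcription factor NFAT5, also called TonEBP, switches on aldose reductase and these transporters in hypertonic surroundings by binding a tonicity-responsive element, TonE. In whole kidney RNA the inner medulla is a small share of the tissue, and fewer cells of a type cannot be told apart from less RNA per cell.

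Promoter windows were searched for 4 of the 8 genes, Slc5a3, Slc6a12, Nfat5 and Bdkrb2. They were 8 windows of 250 bases before annotated transcript starts (RefSeq, build GRCm38.p6). For the 8 genes, windows on 1 chromosome were left out of the search, while the shares over all windows were not limited in this way. No window of Slc14a2, Slc14a1, Slc6a6 or Cryab was searched, so nothing is known here of a TonE in theirs. The window of Slc6a12 is shown because it holds a TonE. That of Bdkrb2 is shown because it is the 1 gene of the lowered group with a window searched. Each is printed 5′ to 3′ on the gene's strand, with the match to TGGAAA in capitals.
Slc6a12: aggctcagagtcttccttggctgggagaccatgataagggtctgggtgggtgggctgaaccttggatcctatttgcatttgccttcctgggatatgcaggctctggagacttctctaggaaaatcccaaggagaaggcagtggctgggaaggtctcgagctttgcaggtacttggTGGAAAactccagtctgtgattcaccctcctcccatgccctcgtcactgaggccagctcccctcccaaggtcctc
Bdkrb2: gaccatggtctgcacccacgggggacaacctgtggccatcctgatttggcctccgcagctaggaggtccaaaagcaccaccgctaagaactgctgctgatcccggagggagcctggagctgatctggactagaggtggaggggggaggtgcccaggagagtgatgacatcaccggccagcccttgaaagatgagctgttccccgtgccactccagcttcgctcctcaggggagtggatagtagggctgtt
The Slc6a12 window lies at chr6:121342324-121342573 on the + strand, the first of 5 starts of this gene, and the Bdkrb2 window at chr12:105562922-105563171 on the + strand. Both strands were searched for TGGAAA, for the longer TonE consensus that begins with it, and for GAANNTTC, a paired heat shock element. TGGAAA begins 75 bases before the start of Slc6a12 and is there part of a full TonE consensus. It was found in 1 of the 8 windows, and GAANNTTC in 0. Of all 32851 windows of this length, 18.6% hold TGGAAA, 4.31% the TonE consensus and 6.69% GAANNTTC. A match is a description of letters and not a shown binding site.

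Slc14a2, Cryab and Bdkrb2 were lower in Usp2-KO kidney, each by about the same amount, while the osmolyte transporters and Nfat5 lay close to their WT levels and Slc14a1 lay above its own. Of the 8 genes 4 were lower and 4 higher, with a median difference of 0.02 on the log2 scale beside a median of -0.01 over all genes. The groups did not overlap for 3 genes that were lower, where 19.1% of all genes were lower without overlap, and for 2 that were higher, where 19.8% of all genes were. By limma across all genes, 0 of the 8 passed an adjusted p under 0.05, a threshold that 0.00502% of genes (Usp2 alone) passed. At an unadjusted p under 0.05 they were 3 of 8 (Slc14a2, Cryab and Bdkrb2), beside 9.11% of all genes. With the littermate pools as a replicate block, the same 3 passed the adjusted threshold, with adjusted p-values of 0.00199 for Slc14a2, 0.000156 for Cryab and 0.00299 for Bdkrb2, beside 0.768% of all genes. With the pools paired crosswise, a setting added after the data were seen, the limma adjusted p-values were 0.285, 0.208 and 0.285 in that order. The choice of the genes used this contrast, so nothing is read from these counts.

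**Figure D1:**
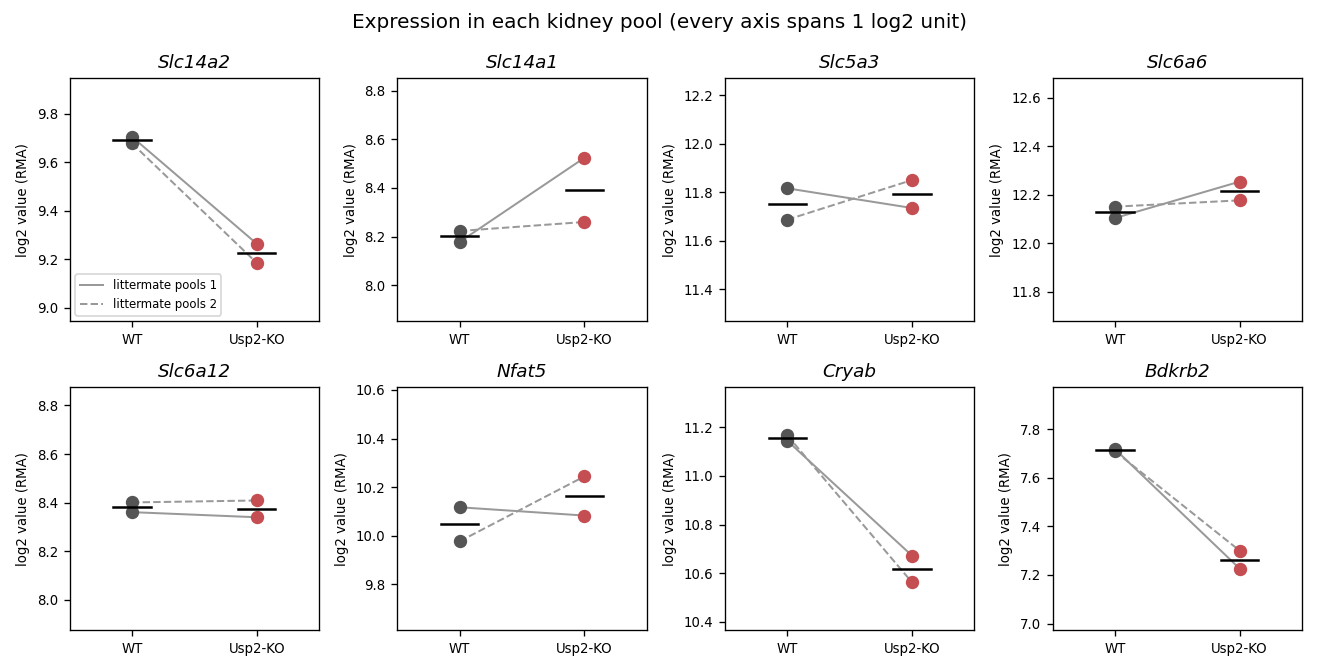
Log2 values of the 8 genes in each pool (circles; grey for WT, red for Usp2-KO), with the group means as black bars and lines that join littermate pools. Every vertical axis spans 1 log2 unit around that gene, and both Usp2-KO pools lie below both WT pools for Slc14a2, Cryab and Bdkrb2.

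Slc14a2 encodes the UT-A urea transporters. Its log2 value was 9.70 and 9.68 in WT pools 1 and 2, and 9.26 and 9.19 in Usp2-KO pools 1 and 2. Both Usp2-KO pools were below both WT pools, and the gap was many times the distance between pools of a genotype. The group levels were 9.69 ± 0.02 (SD, n = 2 pools) and 9.22 ± 0.06 (SD, n = 2 pools), a difference of -0.47 (SE 0.07, 95% confidence interval -0.63 to -0.30). On the linear scale that is 27.6% less signal. The pool 1 littermates differed by -0.44 and the pool 2 littermates by -0.49. Its difference ranked 15 from the lowest among the 19934 genes.

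The other urea transporter gene, Slc14a1, went the other way. Its values were 8.18 and 8.22 in the WT pools, and 8.52 and 8.26 in Usp2-KO pools 1 and 2. The groups did not overlap, but Usp2-KO pool 1 stood apart from the other 3 pools. The levels were 8.20 ± 0.03 in WT pools and 8.39 ± 0.19 in Usp2-KO pools (SD, n = 2), with a difference of 0.19 (SE 0.09, 95% interval -0.02 to 0.40). It was 0.35 in the pool 1 littermates and 0.04 in the pool 2 littermates, and 0.06 with Usp2-KO pool 1 left out. Whether the 2 urea transporter genes differ in their response was not tested.

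Among 10 other measured genes of urea and water handling, 5 were higher and 5 lower, with a median of 0.00 and values between -0.10 and 0.19. None passed the adjusted threshold in limma (0 of 10, also with the littermate block), and 1 had an unadjusted p under 0.05. That gene was Aqp3, the basolateral water channel of principal cells, at 10.10 ± 0.02 in the WT pools and 10.29 ± 0.08 in the Usp2-KO pools (SD, n = 2; adjusted p = 0.493). Aqp2, the vasopressin-regulated apical water channel, differed by 0.11 (0.05 without Usp2-KO pool 1), and Asl, a urea cycle enzyme that also serves arginine synthesis in the kidney, by 0.09. No other gene of this list differed by as much as Slc14a2, itself picked as among the most lowered, as the plot of related pathways shows.

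**Figure D2:**
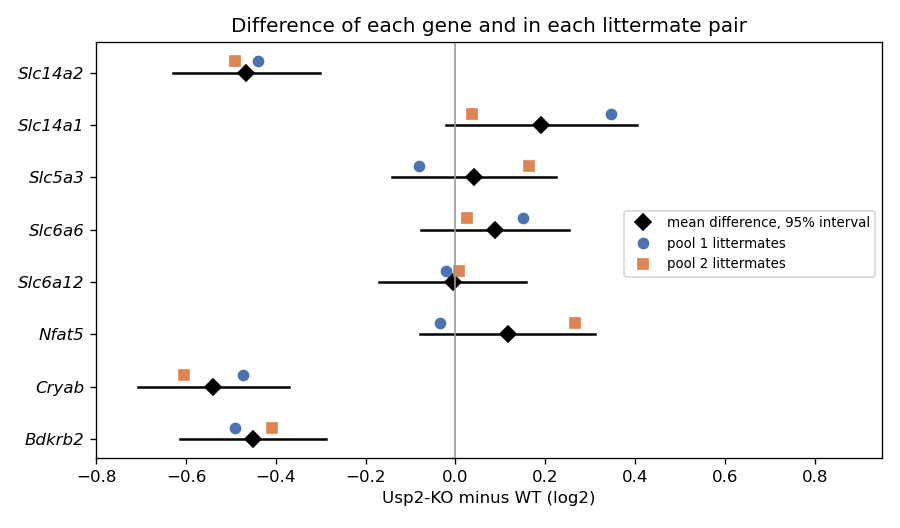
Usp2-KO minus WT on the log2 scale for the 8 genes (diamonds, with the 95% confidence interval of the limma fit as a line) and the same difference within each littermate pair (circles for pool 1, squares for pool 2). Intervals of Slc14a2, Cryab and Bdkrb2 lie below 0, those of the other 5 genes include 0, and the littermate differences of Slc5a3, Slc6a12 and Nfat5 have opposite signs.

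For all 3 osmolyte transporters the 95% interval of the difference included 0. Slc5a3, which carries myo-inositol with sodium, was at 11.82 and 11.69 in WT pools 1 and 2 and at 11.74 and 11.85 in the Usp2-KO pools. The groups overlapped, and the difference of 0.04 (SE 0.08) was made of -0.08 in the pool 1 littermates and 0.16 in those of pool 2. Slc6a12, the betaine transporter whose promoter window is printed above, had 8.36 and 8.40 in the WT pools and 8.34 and 8.41 in the Usp2-KO pools. Its groups overlapped entirely, with a difference of -0.01 (95% interval -0.17 to 0.16), the smallest of the 8 genes. Slc6a6, the taurine transporter, had 12.10 and 12.15 in the WT pools and 12.25 and 12.18 in the Usp2-KO pools. Both Usp2-KO values were the higher ones, by 0.09 on average (95% interval -0.08 to 0.25), with 0.15 in the pool 1 and 0.03 in the pool 2 littermates. The upper ends of the 3 intervals, 0.22, 0.16 and 0.25 in that order of genes (Slc5a3, Slc6a12, Slc6a6), still allow modest increases, so a p that misses the threshold does not show equal levels.

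Nfat5 itself lay at 10.12 and 9.98 in the WT pools and at 10.08 and 10.24 in the Usp2-KO pools. The groups overlapped, since Usp2-KO pool 1 was below WT pool 1. The difference of 0.12 (SE 0.09, 95% interval -0.08 to 0.31) came from the pool 2 littermates with 0.27, while those of pool 1 had -0.03, and it was 0.04 without Usp2-KO pool 2 and 0.05 without WT pool 2. NFAT5 is governed in large part through its protein and its entry into the nucleus, which an array of RNA does not measure.

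Of 13 other measured genes that make, carry or break down osmolytes, 8 were higher and 5 lower, with a median of 0.03 and values from -0.09 to 0.21. By limma 0 of them passed the adjusted threshold, also with the littermate block, and 2 had an unadjusted p under 0.05. Gpcpd1, a phosphodiesterase that splits the osmolyte glycerophosphocholine, was at 8.45 ± 0.04 in the WT pools and 8.67 ± 0.09 in the Usp2-KO pools (SD, n = 2; adjusted p = 0.454). Cdo1 and Csad, successive enzymes on the way from cysteine to taurine, differed by 0.19 and 0.13, in each case alike in both littermate pairs (0.19 and 0.19 for Cdo1, 0.12 and 0.14 for Csad). Without WT pool 2 or without Usp2-KO pool 1 the value of Cdo1 was 0.12.

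In the list of the tonicity response, with the other NFAT family members, regulators and stress targets, 12 of 19 genes were higher and 7 lower, with a median of 0.02. By limma 0 passed, with or without the littermate block, and 2 had an unadjusted p under 0.05. Gadd45a, a growth arrest gene of the DNA damage and osmotic stress responses, was lower by 0.24 and 0.33 in the littermate pairs, from 8.07 ± 0.08 to 7.79 ± 0.02 (SD, n = 2 pools; adjusted p = 0.326). Hsp90b1, a chaperone of the endoplasmic reticulum, differed by 0.27, but WT pool 2 at 10.33 stood below the other 3 pools (10.71 to 10.79), and the value was 0.08 without it. Akap13, a scaffold and exchange factor that activates NFAT5, differed by 0.14, with 0.04 and 0.24 in the littermate pairs and 0.06 without WT pool 2.

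**Figure D3:**
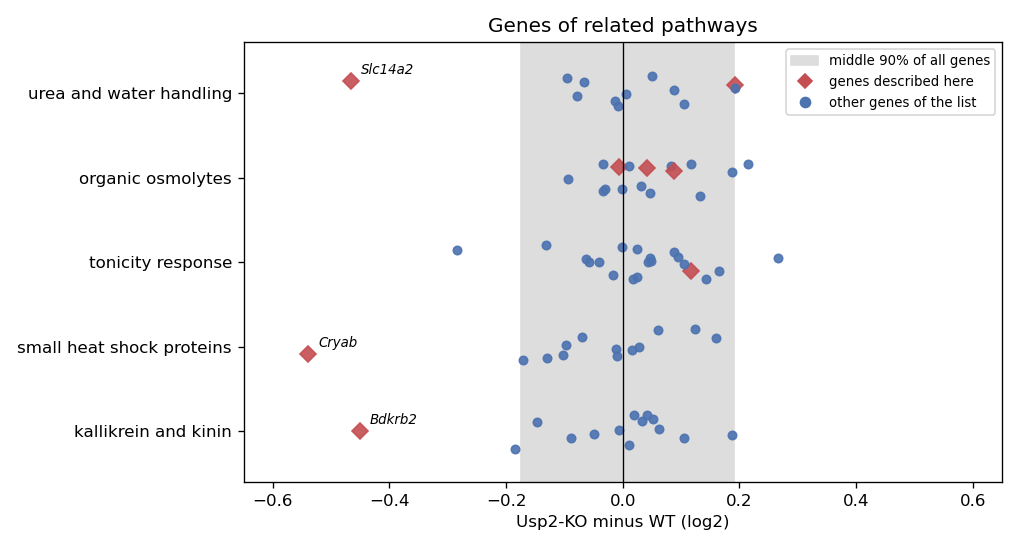
Usp2-KO minus WT on the log2 scale for every measured gene of 5 related lists (red diamonds for the genes described here, blue circles for the rest, spread vertically to separate them), over a grey band that holds the middle 90% of all genes, from -0.17 to 0.19. Slc14a2, Cryab and Bdkrb2, picked as among the most lowered, lie far to the left of the other genes of their lists.

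Cryab encodes alpha-B crystallin, a small heat shock protein that keeps unfolded proteins from clumping and is abundant in lens, muscle and the renal medulla. Its values were 11.15 and 11.17 in the WT pools, and 10.67 and 10.56 in Usp2-KO pools 1 and 2. The WT pools nearly coincided, and both Usp2-KO pools lay well below them. The levels of 11.16 ± 0.02 and 10.62 ± 0.08 (SD, n = 2 pools) gave a difference of -0.54 (SE 0.07, 95% interval -0.71 to -0.37), or 31.2% less signal, and -0.47 and -0.60 in the 2 littermate pairs. Its difference ranked 6 from the lowest.

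Of 12 other small heat shock proteins and their regulators 5 were higher and 7 lower, with a median of -0.01 and values from -0.17 to 0.16. In limma 0 of 12 passed, also with the littermate block, and 1 had an unadjusted p under 0.05. This was Hspb1, the widely expressed small heat shock protein, at 10.06 ± 0.01 in the WT pools and 9.89 ± 0.07 in the Usp2-KO pools (SD, n = 2; adjusted p = 0.533), and its second array row gave the same -0.17. Hspb3, best known from muscle, differed by -0.13, and Hspb11, a part of the ciliary transport complex, by 0.12 at a level of 5.905 in WT.

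Cryab lies on chromosome 9, as Usp2 does, 97 measured genes away in the order of the GRCm38.p6 gene table. Its immediate neighbours differed in both directions. On the side toward Usp2, Dlat, a subunit of pyruvate dehydrogenase, differed by 0.24, Dixdc1 by 0.15 and 2310030G06Rik, next to Cryab, by -0.39. On the far side Hspb2, another small heat shock gene that lies within the span of the Cryab gene models, differed by 0.02, 1110032A03Rik by -0.37 and Fdxacb1 by -0.01. None passed the adjusted threshold, while 2310030G06Rik (adjusted p = 0.0175) and 1110032A03Rik (adjusted p = 0.029) did so in limma with the littermate block. Of the 96 measured genes between Usp2 and Cryab, 50 were lower and 46 higher, with a median of -0.01, but large differences in both directions were more frequent there than over all genes. Below -0.3 were 7 of the 96 (7.29%), beside 0.572% of all genes, and above 0.3 were 8 (8.33%), beside 1.15% of all genes. In limma 0 of the 96 passed the adjusted threshold, and 33 had an unadjusted p under 0.05, where 9.11% of all genes did. With the littermate block 10 (10.4%) passed, beside 0.768% of all genes. Among 120 measured genes on the other side of Usp2, 2 (1.67%) were below -0.3 and 2 (1.67%) above 0.3. Of them 12 had an unadjusted p under 0.05, and 0 passed in limma with or without the block. Many of these 120 were olfactory receptor genes at low log2 values, such as Olfr924 at 3.02 on average, which may be background. The stretches were therefore not alike in level. The difference between the stretches was not tested. The groups of 29 of these 96 genes (30.2%) were lower without overlap, where 19.1% of all genes were. About as many of the 96 were higher without overlap, such as Mpzl2 (0.78) and Il18 (0.47), where 19.8% of all genes were. What the nearness to the deleted gene contributes to the value of Cryab was not tested. Because Cryab and Hspb2 overlap in the table, signal could be shared between their rows, which was not tested. The Hspb2 row stood at 7.60 ± 0.06 in the WT pools and 7.61 ± 0.04 in the Usp2-KO pools (SD, n = 2).

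**Figure D4:**
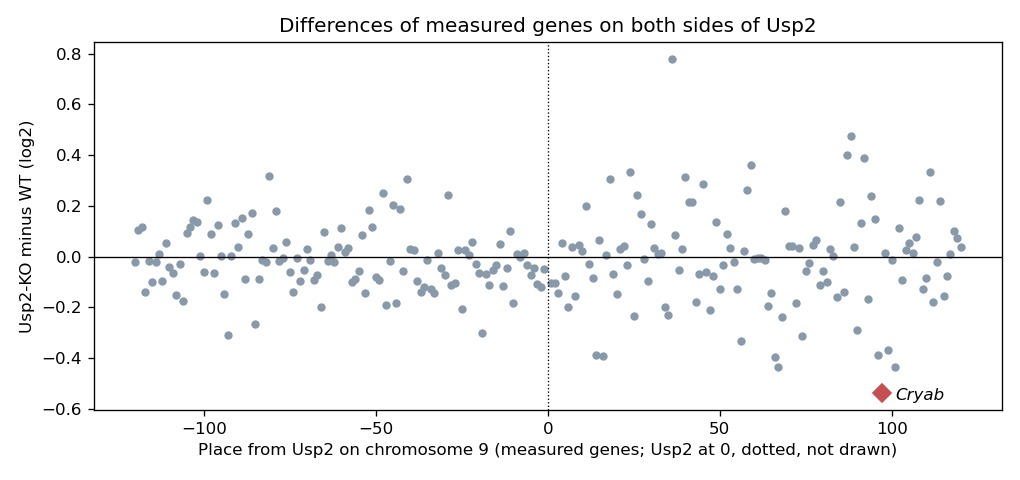
Usp2-KO minus WT on the log2 scale of measured genes within 120 places of Usp2 on chromosome 9, in gene order (circles), with Cryab as a red diamond at place 97. Usp2 itself, at -4.04, is not drawn, and the dotted line marks its place. Between Usp2 and Cryab 15 of 96 genes lie beyond 0.3 in either direction, up to 0.78, against 4 of 120 on the other side. Many genes on the other side are olfactory receptor genes at low log2 values, which may be background.

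Bdkrb2 encodes the receptor through which bradykinin lowers blood pressure and, in the collecting duct, opposes salt and water retention. Its values were 7.72 and 7.71 in the WT pools, and 7.23 and 7.30 in the Usp2-KO pools. The WT pools were nearly equal and the Usp2-KO pools lay below them. The levels were 7.71 ± 0.01 and 7.26 ± 0.05 (SD, n = 2 pools), a difference of -0.45 (SE 0.07, 95% interval -0.61 to -0.29), or 26.8% less signal. The littermate pairs differed by -0.49 and -0.41, and the difference ranked 18 from the lowest.

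No other measured gene of the kallikrein and kinin system differed by as much as Bdkrb2, itself picked as among the most lowered. Of 13 measured, 8 were higher and 5 lower, with a median of 0.02 and values from -0.18 to 0.19, and by limma 0 passed with or without the littermate block and 0 had an unadjusted p under 0.05. Mme, neprilysin, a peptidase that breaks down kinins, differed by 0.19, with Usp2-KO pool 2 at 10.42 above the other 3 pools (10.11 to 10.18), and by 0.065 without it. Cpn1 and Cpm, carboxypeptidases that trim kinins, differed by -0.18 and -0.15, which came from the pool 2 littermates (-0.38 and -0.32) and not from those of pool 1 (0.01 and 0.03). Bdkrb1, the second kinin receptor, named for contrast after its values were seen, differed by 0.02.

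Over all 5 lists, 67 measured genes besides the 8 were tested, 38 higher and 29 lower, with a median of 0.02. By limma 0 passed the adjusted threshold, also with the littermate block, and 6 (8.96%) had an unadjusted p under 0.05, where 9.11% of all genes did.

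Marker lists were used for the cell types of the inner medulla and those that could carry these transcripts. Whether a listed gene is limited to its cell type in whole kidney RNA was not tested. Of the 8 genes listed for the inner medullary collecting duct 6 were lower and 2 higher, with a median of -0.08. Their mean log2 level was 8.998 and 9.07 in the WT pools and 8.99 and 8.96 in the Usp2-KO pools. Lower were Cldn4, a tight junction protein (-0.17, with -0.02 in the pool 1 littermates and -0.07 without WT pool 2), and Wnt7b, a signal that shapes the medulla (-0.13). Aqp2, also on this list, was higher by 0.11 (0.05 without Usp2-KO pool 1), and its groups did not overlap. The 3 measured genes of the thin limb list were lower, with means of 9.43 and 9.53 in WT and 9.40 and 9.41 in Usp2-KO kidney. They were Cldn3 (-0.17, but -0.06 without WT pool 2, with -0.03 and -0.32 in the littermate pairs), Bst1 (-0.04, but -0.004 without Usp2-KO pool 1) and Aqp1 (-0.01). The groups of Bst1 and Aqp1 overlapped. Aqp1 stood at 12.17 in WT, near the proximal tubule marker Slc5a2 at 11.93. Medullary stroma had 2 of 5 markers lower, with list means of 7.70 and 7.72 in WT and 7.77 and 7.67 in Usp2-KO kidney. Among them Has2, a hyaluronan synthase, differed by -0.24, at a low level of 5.61 in WT that may be background. Tnc differed by 0.21, or 0.01 without Usp2-KO pool 1. For the collecting duct and thin limb lists both Usp2-KO means lay just below both WT means, while the stroma means overlapped, and no gene of the 3 lists passed the adjusted threshold.

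Red blood cells, where Slc14a1 is also active, had 3 of 7 markers measured, all 3 lower, with list means of 6.32 and 6.44 in WT and 6.22 and 6.12 in Usp2-KO kidney. The lowest of them, Rhag, stood at 4.30 in WT, which may be background. Alas2, the erythroid enzyme of heme synthesis, differed by -0.38 (-0.17 and -0.59 in the littermate pairs; adjusted p = 0.0264 with the littermate block), and by -0.23 without WT pool 2. The haemoglobin genes on the list are not reported here. Skeletal muscle, a rich source of Cryab, had 5 of 7 markers lower, with list means of 7.22 and 7.23 in WT and 7.17 and 7.16 in Usp2-KO kidney. The groups of this list and of the red cell list did not overlap. Its largest difference was that of Myh1 (-0.22), at a level of 5.84 in WT, and Acta1 differed by -0.12, or -0.06 without Usp2-KO pool 2.

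Urothelial markers were lower in 8 of 9, with list means of 7.30 and 7.44 in WT and 7.30 and 7.20 in Usp2-KO kidney, so that 1 pool of each genotype coincided. Krt15 differed by -0.26 (-0.15 without Usp2-KO pool 1) and Krt20, at a level of 5.63 in WT, by -0.16, while Trp63 differed by 0.13. Adipocyte markers were lower in 4 of 5, with 7.39 and 7.39 in WT, 6.98 in Usp2-KO pool 1 and 7.35 in Usp2-KO pool 2. Adipoq (-0.47) and Retn (-0.42) passed with the littermate block (adjusted p = 0.00378 and 0.014), with littermate differences of -0.83 and -0.12 for Adipoq and -0.69 and -0.14 for Retn, and were at -0.14 and -0.21 without Usp2-KO pool 1. Without that pool Slc14a2 was at -0.51, Cryab at -0.59 and Bdkrb2 at -0.41. Endothelial markers were lower in 5 of 6, with list means of 10.15 and 10.24 in WT and 10.20 and 10.11 in Usp2-KO kidney. Thick limb markers were higher in 4 of 5, proximal tubule markers in 3 of 5 and glomerular markers in 2 of 4, with medians of 0.11, 0.02 and 0.05. The part of any of these lists in the differences of Slc14a2, Cryab and Bdkrb2 was not tested. Over all 60 markers 41 were lower and 19 higher, and by limma 0 passed the adjusted threshold, 7 (11.7%) had an unadjusted p under 0.05, beside 9.11% of all genes, and 3 (5%) passed with the littermate block, beside 0.768%. Lower were 68.3% of the markers and 52.5% of all genes.

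**Figure D5:**
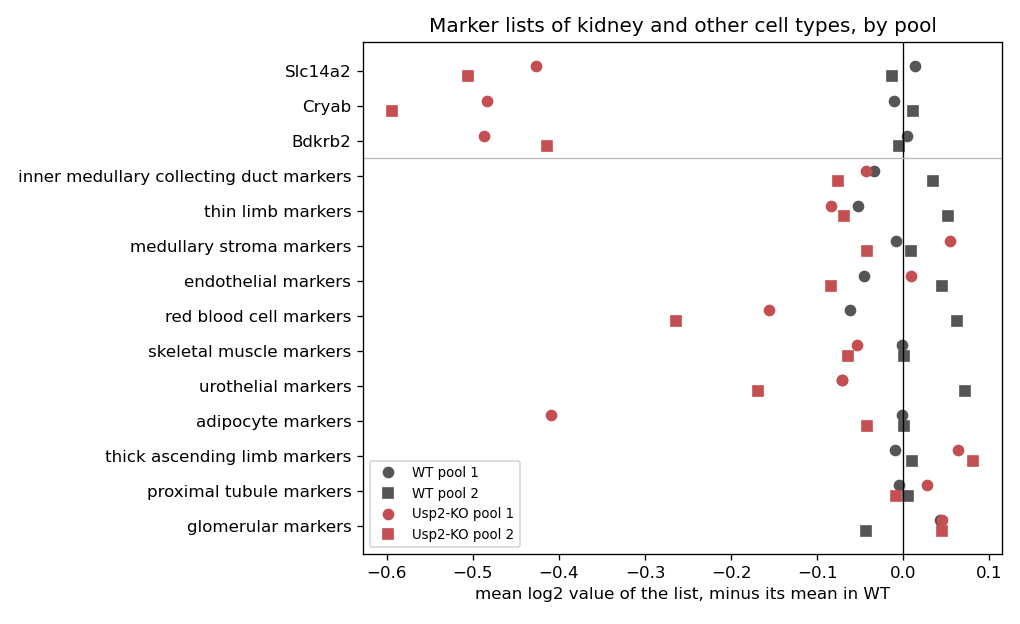
Mean log2 level of 11 marker lists in each pool, minus the mean of the WT pools (grey for WT, red for Usp2-KO; circles for pool 1, squares for pool 2), below the same for Slc14a2, Cryab and Bdkrb2. The 3 genes, picked as among the most lowered, lie between -0.41 and -0.59 in both Usp2-KO pools. Among the lists only that of adipocytes in Usp2-KO pool 1 lies near -0.4. A list mean averages several genes, so its shift is not comparable with that of 1 picked gene.

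The genes whose values followed the same course over the 4 arrays were sought by the distance between values centred on each gene's mean, among 15059 named genes with a mean log2 value of at least 6. Nearest to Slc14a2 were Alg9, a mannosyltransferase of N-glycan assembly (distance 0.08, difference -0.44), Iqcf5 (0.08, -0.38) and the row annotated as the microRNA gene Mir345 (0.09, -0.39). Nearest to Cryab were Alg9 (0.11), Iqcf5 (0.16) and Ces1g, a carboxylesterase (0.17, difference -0.49, or -0.32 without Usp2-KO pool 2). Alg9 lies 4 measured genes from Cryab on chromosome 9. Nearest to Bdkrb2 were Ltb, lymphotoxin beta (0.10, difference -0.36), Npy1r, a neuropeptide Y receptor (0.11, -0.35), and Mir345 (0.12). With 4 arrays in 2 groups, such a likeness says little beyond a similar step between the genotypes.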

How the data were processed

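The deposited table holds log2 values of 28270 array rows in 4 arrays, which the submitters' processing notes credit to RMA, run by the authors. This method subtracts background, equalises the distributions of the arrays and summarises probes, which can shrink true shifts common to all genes. Its software version and any row filter are not given in the sources used here. Rows were named from the platform's annotation: 21780 had 1 symbol, 1617 several and 4873 none. The row of highest mean was kept per symbol, giving 19934 genes. The genotype difference, Usp2-KO minus WT, was estimated in R 4.3.3 by limma (version 3.58.1) with genotype as the term (2 pools against 2) and adjusted by Benjamini-Hochberg over all genes. The series' design text pairs the pools by litter, so a fit with pool number as a replicate block was also made. The deviations of same-numbered pools correlated at -0.12 across genes. With the block the fit has 1 residual degree of freedom and takes 90.6 from the prior, which gives genes nearly a common spread.

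The genes described and all lists were chosen with earlier results of these data known. Named besides the 8 genes were Usp2, up to 3 genes of smallest p per list, 3 neighbours on each side of Cryab and the 3 nearest in pattern to each of Slc14a2, Cryab and Bdkrb2. Alternatives were the block, an intensity trend, a filter at a mean log2 value of 6, averaging a gene's rows, repeated quantile normalization, centring on medians and each pool left out. The fit was run on simulated data, with recovery required only for differences larger than those of Slc14a2, Cryab and Bdkrb2. Recovery of differences of their size is not reported here. The exact permutation test of 2 against 2 cannot give a two-sided p below 0.333 and was not used. No detection calls were at hand, so low values may be background. Figures used matplotlib 3.10.9.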

Additional observations from a re-analysis of the deposited data

How the results depend on the processing

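The differences of Slc14a2 (-0.51 to -0.43), Cryab (-0.59 to -0.48) and Bdkrb2 (-0.49 to -0.41) kept their sign in all 11 alternatives run. The number of the 8 genes past the adjusted threshold was 0 in the comparison as reported. With the replicate block it was 3, with an intensity trend 2 and with the filter at a mean of 6 it was 1. The number over all genes, 1 in the comparison as reported, was 153, 18 and 7 in that order. It was 1 to 2 with single pools left out, and 1 with the pools paired crosswise, a setting added after the data were seen, which called 0 of the 8 genes. The paired fit called no gene of the 5 pathway lists other than the 8, and of the remaining named genes it added calls for Alas2, Adipoq, Retn, 2310030G06Rik, 1110032A03Rik, Alg9, Iqcf5, Ces1g, Mir345, Ltb and Npy1r. The sign of the median over the 8 genes, close to 0, is not stable. The median of the 8 genes was -0.0288 to 0.0387 with single pools left out. Of the 8 genes, Slc5a3 (-0.0235 to 0.1055) and Slc6a12 (-0.041 to 0.028) turned sign with single pools left out. So did, of the remaining named genes, Cdh5 (-0.154 to 0.03), Dcn (-0.021 to 0.171), Fdxacb1 (-0.087 to 0.061), Hspb2 (-0.0285 to 0.0605), Kdr (-0.1835 to 0.0015), Pecam1 (-0.12 to 0.015), Ptger3 (-0.016 to 0.251) and Slc5a2 (-0.034 to 0.077), and for Fdxacb1 with repeated quantile normalization (0.0119). The cause was not tested. Only 4 arrays limit the precision, and the pooled RNA hides the spread between mice.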
